A study of Mus musculus with 6 samples.

Results

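The genes described here are 42 interferon-stimulated genes, a named list of mouse genes whose transcription is raised by interferons, of 54446 annotated genes in the data. They were matched by gene name in 6 RNA-Seq libraries of mouse CD8+ T cells, and all 42 were found. Of these, 39 averaged 1 FPKM or more across the libraries and were tested, among 14991 genes tested in all. FPKM is the number of sequenced fragments assigned to a transcript, divided by the transcript's length and the library's total, so that levels can also be compared between genes. *Oas1a*, *Oas2* and *Oasl1* lay under that mean and are given by their values alone.

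The libraries were made from CD8+ T cells taken by negative selection from the spleens of wild type C57BL/6 mice, 8 weeks old. Unstimulated cells were fresh. Control cells were stimulated for 72 h without magnets, by antibodies against CD3 and CD28 coated on the plate, and SMF-treated cells were stimulated in the same way while their plates stood on permanent magnets, which gave a static magnetic field (SMF) of 0.3 T. Each group has 2 libraries, and the study compared them to learn which transcripts the field changes in stimulated cells. Nothing in the labels says that the replicates came from separate animals or cultures, so the p-values measure only the spread between these libraries.

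Interferons act in 2 main ways. Type I interferons bind the receptor of IFNAR1 and IFNAR2, whose kinases JAK1 and TYK2 lead to the complex ISGF3, which holds STAT2 and IRF9 and binds the interferon-stimulated response element (ISRE). Interferon gamma, the form made by stimulated CD8+ T cells, binds IFNGR1 and IFNGR2, and signals through JAK1 and JAK2 to gamma-activated sites (GAS). Many antiviral genes answer mostly to the first pathway, whereas IRF1 and the interferon-inducible GTPases also answer strongly to the second.

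The depth of the libraries, as deposited coverage times transcript length, ranged from 64.4 to 259 Mb, and both ends of that range touch the results: Control replicate 1 had 64.4 Mb and Control replicate 2 had 172 Mb, while SMF replicate 1 had 259 Mb and SMF replicate 2 had 227 Mb. By the folder dates in the file headers, Unstimulated and Control replicate 1 shared 1 date, and Unstimulated and Control replicate 2 shared another. Both SMF libraries had a later date. What the folder date marks is not stated, and whatever it marks cannot be told apart from the field. None of the 6 CD8+ T cell markers was listed at 0 in any library, and their summed level ranged from 349 to 950 FPKM. The summed level of 6 stimulation markers was 45.9 and 50.4 FPKM in the Unstimulated libraries and 2080 to 5170 FPKM in the stimulated ones.

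To show where interferon-responsive factors could bind, the promoters of the members were read from RefSeq on GRCm38.p6, each as a window of 300 bases from 250 before to 50 after the start of transcription. Windows were found for 32 of the 42 members, 37 windows in all; *Usp18*, *Zbp1*, *Oas2*, *Mx1*, *Mx2*, *Parp9*, *Parp14*, *Gbp4*, *Ifi27l2a* and *Rtp4* were not matched. The ISRE core GAAANNGAAA, on either strand, was present in 20 of these 37 windows (54.1%), against 3.44% of all 32851 windows. The GAS core TTCNNNGAA, which reads the same in form on both strands, was present in 10 windows (27%), against 8.3% of all windows. All 6 matched GTPase genes held the ISRE core and 3 of them also held the GAS core, and the cores may overlap each other. A match of letters describes the window and is no evidence of binding in these cells.

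The following 5 windows of 120 bases are shown because these genes carry the contrasts described later: *Isg15* and *Oas3* differed by more than 4-fold between the SMF libraries, *Igtp* and *Gbp2* were high in both of them, and *Irf1* fell in Control against Unstimulated cells. Capitals mark the ISRE and GAS cores. The *Isg15* window is chr4:156200819-156200938 on the minus strand and holds 3 overlapping ISRE cores, GAAAAGGAAA, GAAACCGAAA and GAAACAGAAA. *Oas3* is chr5:120777660-120777779 on the minus strand, with 1 ISRE core. *Igtp* is chr11:58199436-58199555 on the plus strand and has a GAS core, TTCTAGGAA, next to an ISRE core, GAAACTGAAA. The *Gbp2* window, chr3:142620495-142620614 on the plus strand, ends 49 bases before the RefSeq start and has 1 ISRE core on the opposite strand. In the annotation of these data the gene starts at base 142620602, inside the window and just before the core, and the window was ended after the core. *Irf1* is chr11:53769894-53770013 on the plus strand, with a GAS core and no ISRE core. For *Irf1* a window was selected because it held a GAS core, whereas the other genes are shown by the first window listed for them.
Isg15: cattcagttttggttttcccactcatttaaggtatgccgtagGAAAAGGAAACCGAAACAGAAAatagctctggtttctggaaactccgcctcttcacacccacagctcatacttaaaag
Oas3: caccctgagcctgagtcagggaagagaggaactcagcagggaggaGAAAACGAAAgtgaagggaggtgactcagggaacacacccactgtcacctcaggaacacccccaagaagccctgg
Igtp: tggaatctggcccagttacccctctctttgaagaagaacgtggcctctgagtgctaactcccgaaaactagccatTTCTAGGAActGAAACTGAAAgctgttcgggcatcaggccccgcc
Gbp2: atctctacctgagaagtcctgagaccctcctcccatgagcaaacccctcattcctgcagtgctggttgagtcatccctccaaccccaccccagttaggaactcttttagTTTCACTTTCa
Irf1: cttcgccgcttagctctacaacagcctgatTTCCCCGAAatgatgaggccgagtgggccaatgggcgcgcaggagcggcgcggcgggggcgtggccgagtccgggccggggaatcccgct

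Summed over the 42 members, the level was 393 and 488 FPKM in Unstimulated cells, 570 and 818 in Control cells, and 568 and 1330 in SMF-treated cells, here and in all that follows with replicate 1 named first. In this sum SMF replicate 1 stood beside Control replicate 1, and SMF replicate 2 stood above all other libraries. The parts of the sum differed in both directions between SMF replicate 1 and Control replicate 1. The GTPases were at 292 and 139 FPKM, and the PARP and TRIM regulators at 57 and 152. Members listed at 0 numbered 10 and 4 in Unstimulated cells, 10 and 4 in Control cells, and 9 and 0 in SMF-treated cells. In such bulk libraries, fewer cells that express a gene and less of its RNA per cell cannot be told apart.

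**Figure D1:**
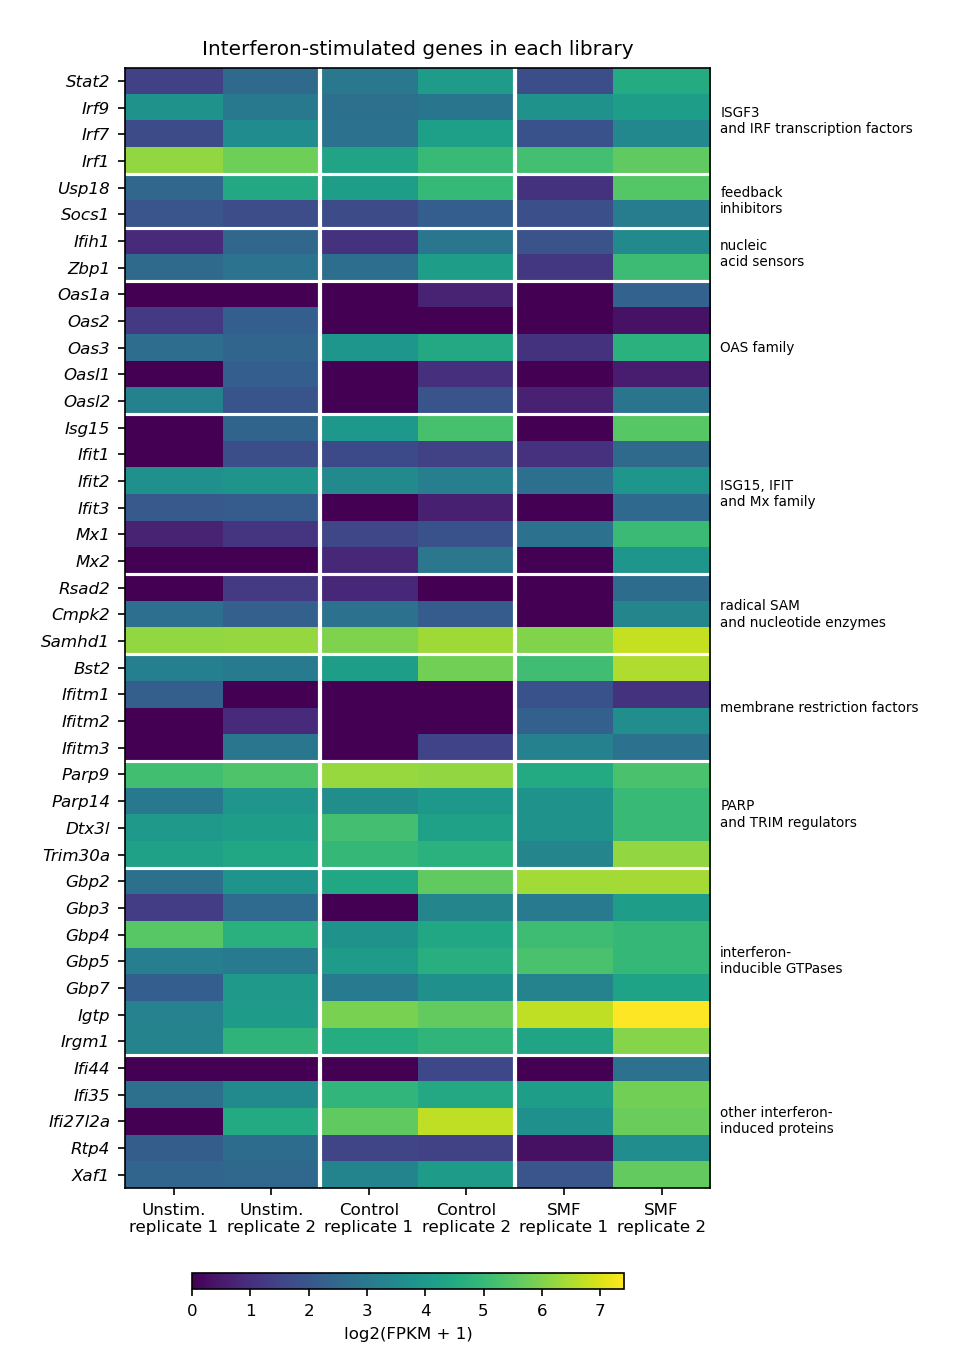
Level of the 42 interferon-stimulated genes in each library, as log2(FPKM + 1) on a colour scale from dark (0) to yellow (high), with genes in rows grouped by role and libraries in columns grouped by white lines. SMF replicate 2 has no member listed at 0, whereas SMF replicate 1 has 9, and the GTPases *Igtp* and *Gbp2* are bright in both.

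The members differed widely between the SMF libraries. SMF replicate 2 was at least 2-fold above replicate 1, on the log2(FPKM + 1) scale, for 28 of the 39 members tested, and no member was 2-fold above in the other direction; over all genes tested, 9.67% were 2-fold higher in replicate 2 and 9.37% in replicate 1. At 4-fold the counts were 16 members and 0 members, against 2.98% and 2.63% of all genes. The median difference between these libraries was 1.61 for the members and 0 for all genes tested, and replicate 2 was the higher for 35 of 39. Of the 200 genes with the largest excess in SMF replicate 2, 9 were members, which is 4.5% of those genes and 23.1% of the members tested, and 0 members were among the 200 genes at the opposite end.

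**Figure D2:**
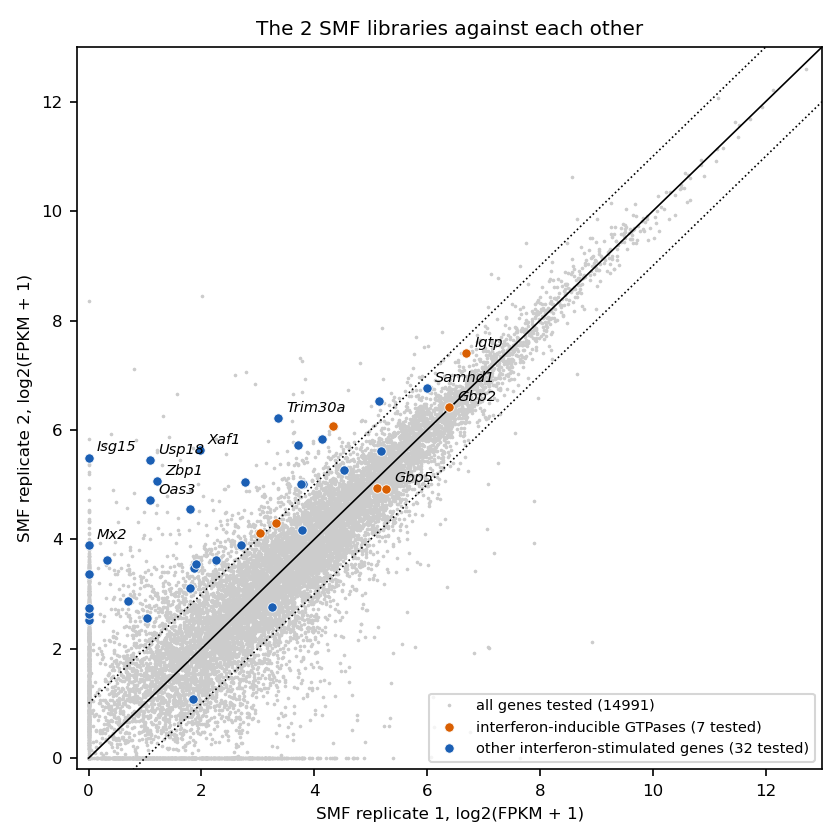
SMF replicate 2 against SMF replicate 1, both as log2(FPKM + 1), with 1 point for each of the 14991 genes tested. The solid line marks equal levels and the dotted lines a 2-fold difference; 28 of 39 members lie above the upper dotted line and 0 below the lower one, whereas the cloud of all genes is centred on the solid line and *Gbp2* and *Gbp5* lie close to it.

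The same difference was smaller in the other groups, where a larger share of all genes differed; the change between groups was not tested. Control replicate 2 was at least 2-fold above replicate 1 for 13 of 39 members and below for 0, with 19.9% and 12.7% of all genes, and the members' median difference was 0.59. Unstimulated replicate 2 was 2-fold above replicate 1 for 13 members and below for 2, with 19.2% and 13.4% of all genes, and the median was 0.28. In these groups the replicates also differed in folder date and in depth. The SMF libraries shared a folder date and differed in depth by little. Those differences in folder date and depth were not tested as a source of the members' spread.

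**Figure D3:**
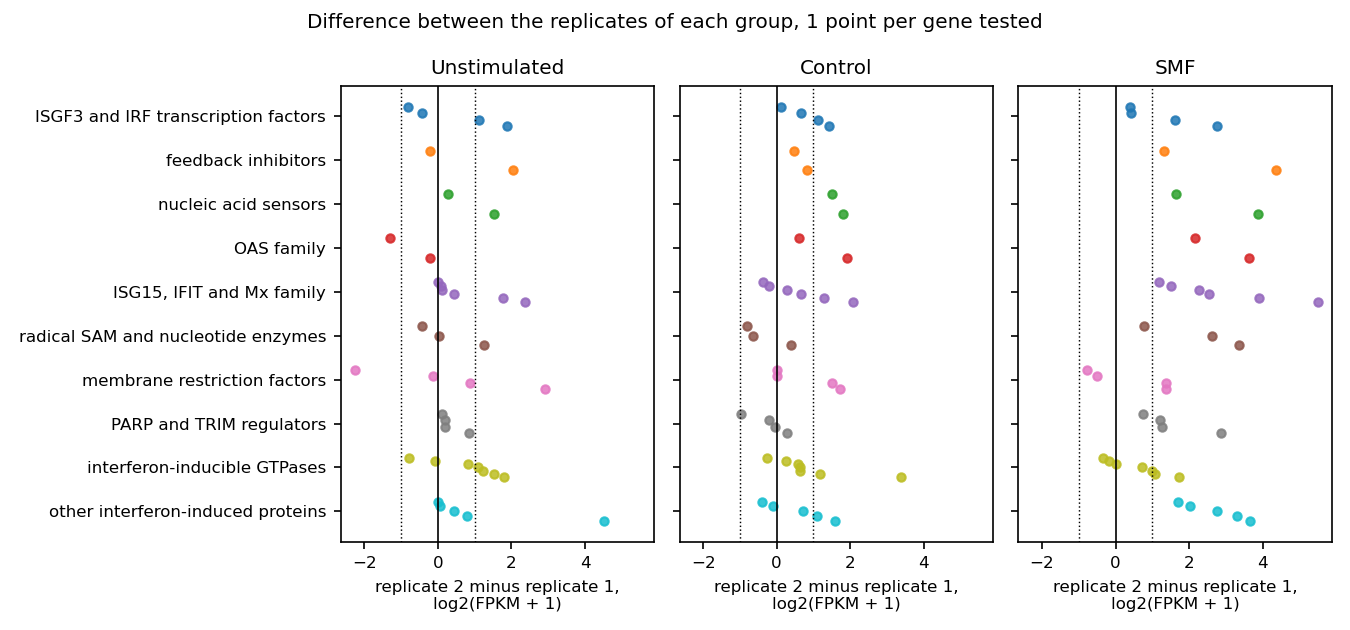
Difference between replicate 2 and replicate 1 of each group on the log2(FPKM + 1) scale, for the 39 members tested, with 1 point per gene and 1 line per role. Dotted lines mark 2-fold; in the SMF group 28 points lie at or beyond the right dotted line and 0 beyond the left one, and the GTPases lie nearer to 0 than most other roles.

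Set against the Control libraries, the position of the members differed between the SMF libraries. SMF replicate 1 lay below both Control libraries for 18 of 39 members and above both for 10, whereas 23.6% and 47.6% of all genes did so. SMF replicate 2 lay above both Control libraries for 35 members and below both for 1, whereas 47.2% and 23.5% of all genes did so. The stimulation markers were at a summed 3020 FPKM in SMF replicate 1 and 5170 in replicate 2, of which *Gzmb* gave 2280 and 4280, and the CD8+ T cell markers were at 950 and 854. The 6 B cell markers summed to 4.85 and 2.71 FPKM, with 3 and 4 of them listed at 0, among them *Pax5* in both. The 4 NK cell markers summed to 75.1 and 97.7, with *Ncr1* and *Klrb1c* at 0 in both and *Klrk1* at 72.1 and 92.5. The 6 myeloid markers summed to 93.1 and 83.0, with *Lyz2* and *Adgre1* at 0 in both. These myeloid sums were mostly *Csf1r*, at 41.1 and 50.4, and *Cst3*, at 45.6 and 31.5. Among the 5 markers of plasmacytoid dendritic cells, which make much type I interferon, *Siglech* and *Spib* were listed at 0 in both SMF libraries, and the summed 34.4 and 91.6 FPKM were nearly all *Bst2*, itself a member. Whether the state of stimulation had a part in the difference was not tested.

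Control cells, stimulated without magnets, had 6 members called higher and 1 lower than Unstimulated cells. A gene was called when it changed 2-fold or more with a p of 0.05 or less before adjustment; the p printed beside each fold change is the Benjamini-Hochberg adjusted p over all genes tested. *Gbp2*, *Gbp5*, *Igtp*, *Bst2*, *Ifi35* and *Ifi27l2a* rose in Control against Unstimulated cells, and *Irf1* fell. The 6 rises are 6 of 39 members where 12.3% of all genes tested rose, and the single fall stands beside 12.6% of all genes, so that the rises were near their background and the fall was under it. Levels in the groups did not overlap for 22 members, 15 higher and 7 lower in Control, where 24.8% and 26.6% of all genes did so. The median log2 fold change was 0.64 for the 39 members (0.42 for all 42) and -0.05 for all genes tested. Leaving out single libraries gave the 39 members medians from 0.07 to 0.86. At a Benjamini-Hochberg adjusted p of at most 0.05 only *Igtp* was called in limma, and 8.48% of all genes. Within the pairs of libraries that shared a folder date, the members' median was 0.81 for replicate 1 and 0.46 for replicate 2. The median of all genes was 0 in both.

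The Unstimulated libraries also held more RNA of marker genes of other cells. There the 6 B cell markers summed to 172 and 122 FPKM, against 2.71 to 23.3 in the stimulated libraries, the 6 myeloid markers to 178 and 211, against 47.0 to 93.1, and the 4 NK cell markers to 497 and 316, against 70.8 to 97.7. The NK sums were nearly all *Klrk1*, at 456 and 295 FPKM, which CD8+ T cells also express; *Ncr1* was at 10.8 and 0.947 and *Klrb1c* at 3.04 and 6.71. None of these 16 markers was listed at 0 in the Unstimulated libraries, while *Lyz2*, *Adgre1*, *Ncr1* and *Klrb1c* were at 0 in all 4 stimulated libraries. In those 4 libraries *Csf1r* was at 41.1 to 53.8 FPKM, against 68.5 and 63.9 in Unstimulated, and *Klrk1* was at 60.5 to 92.5. *Cst3* was at 0 to 45.6 there, against 37.6 and 57 in Unstimulated. The part of these cells in the levels of the members in Unstimulated cells was not tested. Leaving out Control replicate 2 took the members' median in Control against Unstimulated to 0.23, and leaving out Unstimulated replicate 1 took it to 0.07.

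SMF-treated cells had 7 members above Unstimulated cells and none below at the same limits. *Igtp*, *Gbp2*, *Gbp5*, *Bst2*, *Ifi35*, *Mx1* and *Ifitm2* rose, where 22.4% of all genes rose and 14.8% fell, so that the rises were again near the background. For 5 of these, all but *Ifi35* and *Ifitm2*, the adjusted p of limma was at most 0.05, as it was for 23.6% of all genes. The groups did not overlap for 8 members that were higher and 1 that was lower, against 39.7% and 26% of all genes. The median log2 fold change was 0.71 for the members and 0.27 for all genes. Leaving out SMF replicate 1 took the members' median to 1.87, while leaving out SMF replicate 2 took it to 0.00. Between libraries of the same number, the median of SMF minus Unstimulated was 0 for the members and 0.269 for all genes in replicate 1. In replicate 2 it was 1.194 for the members and 0.198 for all genes.

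In SMF against Control, where field and folder date cannot be told apart, 5 members were called higher and 1 lower. *Irf9*, *Mx1*, *Ifitm2*, *Gbp2* and *Igtp* rose and *Parp9* fell, where 12.5% of all genes rose and 5.72% fell, which puts both counts near their background. None had an adjusted p of at most 0.05 in limma, where 6 had an unadjusted p of at most 0.05 and 0.0267% of all genes passed the adjusted limit. For 10 members each SMF library exceeded each Control library: *Irf1*, *Irf9*, *Mx1*, *Ifitm1*, *Ifitm2*, *Ifitm3*, *Gbp2*, *Gbp4*, *Gbp5* and *Igtp*. The opposite held for *Parp9* alone, and the shares of all genes were 37.4% and 17.4%. The median log2 fold change was 0.48 for the members and 0.32 for all genes. With every library shifted to a common median the members' median was 0.14, and 1 member was higher and 1 lower; *Irf9*, *Mx1*, *Gbp2* and *Igtp* were no longer called.

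The direction of the field comparison turned on which SMF library was used. Leaving out SMF replicate 1 gave the members a median log2 fold change of 1.21, whereas leaving out SMF replicate 2 gave -0.38. Between libraries of the same number, the median of SMF minus Control was 0 for the members and 0.306 for all genes in replicate 1. In replicate 2 it was 0.914 for the members and 0.228 for all genes. SMF and Control share no folder date. The comparisons of this and the preceding paragraphs share libraries, so their results are not independent of each other.

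**Figure D4:**
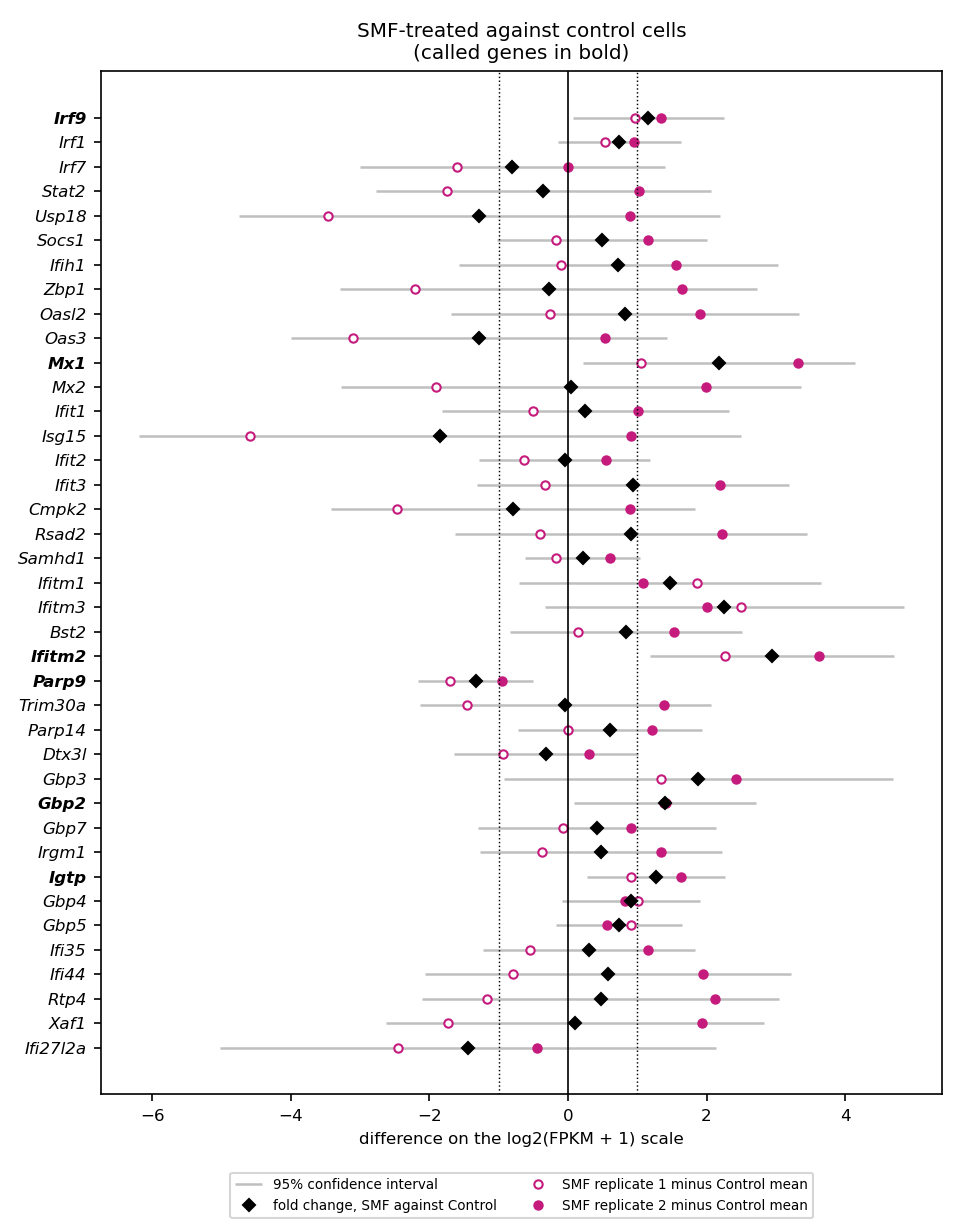
Log2 fold change of SMF against Control for the 39 members tested, on the log2(FPKM + 1) scale, with its 95% confidence interval from limma (grey), and the difference of each SMF library from the Control mean (open and filled circles). The 6 called genes are in bold; open circles lie left of filled ones for all members other than *Ifitm1*, *Ifitm3*, *Gbp4* and *Gbp5*.

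Of the transcription factors, *Stat2*, the part of ISGF3 that activates transcription, was at 1.68 and 4.86 FPKM in the Unstimulated, 6.81 and 16.1 in the Control and 2.46 and 22.6 in the SMF libraries. The SMF libraries lay on either side of both Control libraries. *Irf9*, which gives ISGF3 its DNA binding, was at 13 and 7, 5.72 and 6.33, and 12.7 and 16.9 FPKM. Each SMF library exceeded each Control library, by a log2 fold change of 1.16 (SE 0.449, adjusted p = 0.226, limma). The call was lost without any 1 of these 4 libraries, with fold changes from 0.97 to 1.35. The gene overlaps *Rnf31* on the same strand.

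*Irf1*, which activates GTPase and antigen presentation genes, was at 72.7 and 53.7 FPKM in the Unstimulated, 19.1 and 30.6 in the Control and 35.4 and 47.7 in the SMF libraries. It was the only member called lower in Control against Unstimulated, by a log2 fold change of -1.33 (SE 0.367, adjusted p = 0.0779, limma). Without Unstimulated replicate 1 it was -1.12 and no longer called. The SMF libraries lay between the Control and Unstimulated libraries, overlapping neither. *Irf7*, which amplifies type I interferon production, was at 2.28 and 11.2, 5.73 and 17.2, and 2.63 and 10.1 FPKM, so that in each group the second replicate was at least 2-fold higher than the first.

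Of the feedback inhibitors, *Usp18*, which removes ISG15 from proteins and blocks signalling at IFNAR2, was at 4.41 and 21.2 FPKM in the Unstimulated, 16.5 and 30.0 in the Control and 1.12 and 42.5 in the SMF libraries. SMF replicate 1 was the lowest of the 6 libraries and SMF replicate 2 the highest. The antisense gene *Gm44148* overlaps it and was at 0 and 25.2, 14.8 and 28.0, and 0 and 18.8 FPKM. *Socs1*, an inhibitor of JAK kinases, was at 2.30 to 3.61 FPKM in all libraries except SMF replicate 2, where it was at 7.69.

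The nucleic acid sensors were also highest in SMF replicate 2. *Ifih1*, the sensor MDA5 for long double-stranded RNA, was at 0.875 and 4.42, 1.13 and 6.47, and 2.73 and 10.7 FPKM. *Zbp1*, a sensor of Z-form nucleic acids, was at 4.89 and 6.13, 5.38 and 16.9, and 1.31 and 32.6 FPKM. In every group replicate 2 was the higher, and SMF replicate 2 was the highest library for both genes.

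The oligoadenylate synthetases make the second messenger that activates RNase L. *Oas3* was at 5.24 and 4.37 FPKM in the Unstimulated, 13.8 and 21.4 in the Control and 1.12 and 25.4 in the SMF libraries. The Control libraries lay above both Unstimulated ones, and the SMF libraries lay at the 2 ends of the whole range. *Oasl2* was at 8.46 and 2.82, 0 and 2.77, and 0.618 and 6.28 FPKM. *Oas1a*, *Oas2* and *Oasl1* did not exceed 4.01 FPKM anywhere, and each of them was listed at 0 in SMF replicate 1 and above 0 in SMF replicate 2. Reads of the related *Oas1* and *Oasl* copies could have been split between genes.

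*Isg15*, a ubiquitin-like protein joined to other proteins, was listed at 0 in Unstimulated replicate 1 and was at 4.2 FPKM in replicate 2, at 14.4 and 36.8 in Control cells, and at 0 and 44.1 in SMF-treated cells. It showed the widest gap between the SMF libraries among the members, and its promoter holds the 3 overlapping ISRE cores printed earlier. *Mx2*, a dynamin-like antiviral GTPase, was at 0 in both Unstimulated libraries, at 0.821 and 6.68 in the Control and at 0 and 13.9 in the SMF libraries. The IFIT proteins bind viral RNA: *Ifit1* was at 0 to 4.91 FPKM, *Ifit2* at 5.51 to 13.9 and *Ifit3* at 0 to 4.78, each highest in SMF replicate 2.

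*Mx1*, a nuclear relative of *Mx2* whose common allele in C57BL/6 mice gives no functional protein, was at 0.648 and 1.23, 2 and 2.66, and 5.86 and 32.1 FPKM. The SMF libraries were the highest and the Unstimulated ones the lowest, without overlap. It rose in SMF against Control by a log2 fold change of 2.19 (SE 0.809, adjusted p = 0.213, limma) and against Unstimulated by 2.97 (SE 0.809, adjusted p = 0.0447). The call against Control was lost without SMF replicate 2 (1.05), without Control replicate 1 or 2 (2.04 and 2.33) and without Unstimulated replicate 1 or 2, and that against Unstimulated without Unstimulated replicate 1 or 2 (2.76 and 3.19).

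*Samhd1*, which breaks down deoxynucleotides, was among the most abundant members, at 73.4 and 75.1 FPKM in the Unstimulated, 61.7 and 81.5 in the Control and 62.8 and 108 in the SMF libraries. *Rsad2*, the antiviral enzyme viperin, and its neighbour *Cmpk2*, a nucleotide kinase, were both listed at 0 in SMF replicate 1 and were at 5.20 and 9.28 FPKM in SMF replicate 2. In the other libraries *Rsad2* was at 0 to 1.37 FPKM and *Cmpk2* at 3.46 to 5.91.

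Of the membrane restriction factors, *Bst2*, tetherin, which holds budding viruses at the cell surface, was at 8.15 and 7.36 FPKM in the Unstimulated, 16.6 and 56.5 in the Control and 34.3 and 90.9 in the SMF libraries. All 4 stimulated libraries lay above the Unstimulated ones, and the SMF and Control libraries overlapped. It rose by a log2 fold change of 1.86 in Control (SE 0.691, adjusted p = 0.151, limma) and 2.70 in SMF against Unstimulated (SE 0.691, adjusted p = 0.0378). Without Control replicate 2 the first was 1.01 and no longer called, and the call was also lost without either SMF or either Unstimulated library. The second was lost without SMF replicate 2 (2.01) and without Unstimulated replicate 1 or 2 (2.77 and 2.64).

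The IFITM proteins, which block the entry of viruses, were low, and their similar sequences could have let reads be split between genes. *Ifitm2* was at 0 and 0.831 FPKM in Unstimulated cells, listed at 0 in both Control libraries, and at 3.81 and 11.3 in SMF-treated cells. It was called against Control (adjusted p = 0.148, limma), without a fold change because Control was listed at 0, and rose against Unstimulated by a log2 fold change of 2.51 (SE 0.726, adjusted p = 0.0528), a call lost without Unstimulated replicate 1 (2.07). *Ifitm1* was at 3.77 and 0, 0 and 0, and 2.62 and 1.11 FPKM, and *Ifitm3* at 0 and 6.51, 0 and 1.82, and 8.51 and 5.76. These 2 genes were higher in SMF replicate 1 than in replicate 2, the reverse of most members.

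Among the PARP and TRIM regulators, *Parp9*, an ADP-ribosyltransferase that works in a complex with DTX3L, was at 35.1 and 40.7 FPKM in the Unstimulated, 75.7 and 72.7 in the Control and 22.1 and 37.7 in the SMF libraries. It fell in SMF against Control by 1.33 on the log2 scale (SE 0.343, adjusted p = 0.153, limma), and without SMF replicate 1 the fold change was -0.96, just short of 2-fold. Its partner *Dtx3l*, an E3 ubiquitin ligase that overlaps it on the opposite strand, was at 15.1 and 16.4, 35.5 and 17.8, and 12.6 and 31.4 FPKM, so that the SMF libraries overlapped both other groups. *Parp14* was at 7.04 and 13.6, 11.7 and 14.5, and 13 and 31.4 FPKM. *Trim30a*, which restrains innate signalling, was at 18.0 to 29.4 FPKM in the Unstimulated and Control libraries and at 9.30 and 73.5 in the SMF libraries, 1 below and 1 above all others.

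The interferon-inducible GTPases, which attack the vacuoles and membranes of intracellular pathogens, had 4 of 7 members with both SMF libraries above both Control libraries, where 37.4% of all genes did so. Of the 7, 2, *Irgm1* and *Gbp3*, were at least 2-fold higher in SMF replicate 2 than in replicate 1, and the median difference was 0.72. Summed over the 7 genes, the level was 80.0 and 109 FPKM in the Unstimulated, 139 and 190 in the Control and 292 and 413 in the SMF libraries, so that the groups did not overlap. This order came from *Igtp*, *Gbp2* and *Gbp5*; the other 4 genes, set apart after their values were seen, summed to 57.8 and 72.5 FPKM, 43.6 and 69.6, and 69.2 and 130.0, with overlap between all groups.

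*Igtp* was the most abundant member in each SMF library, at 8.67 and 15.9 FPKM in the Unstimulated, 59.3 and 49.0 in the Control and 102 and 169 in the SMF libraries. The groups did not overlap in any comparison. It rose by a log2 fold change of 2.10 in Control against Unstimulated (SE 0.411, adjusted p = 0.0342, limma), 3.37 in SMF against Unstimulated (SE 0.411, adjusted p = 0.00597) and 1.27 in SMF against Control (SE 0.411, adjusted p = 0.184). The call against Control was lost without SMF replicate 2 (0.91) and without Control replicate 1 or 2 (1.40 and 1.14). The gene overlaps its relative *Irgm2* on the same strand, which was at 7.29 and 5.16, 9.19 and 8.82, and 12.6 and 15.8 FPKM.

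*Gbp2* was at 5.66 and 13.2 FPKM in the Unstimulated, 20.3 and 47.2 in the Control and 83.0 and 84.3 in the SMF libraries, again with no overlap between groups and with the SMF libraries almost equal. It rose by a log2 fold change of 1.72 in Control (SE 0.538, adjusted p = 0.105, limma) and 3.12 in SMF against Unstimulated (SE 0.538, adjusted p = 0.0133), and by 1.40 in SMF against Control (SE 0.538, adjusted p = 0.223). The last call was lost without Control replicate 1 (0.81) and without any other library but Control replicate 2, and the first was lost without Control replicate 2 (1.13), without Unstimulated replicate 1 (1.17) and without either SMF library. *Gbp5* was at 7.95 and 7.45, 15.9 and 24.3, and 37.8 and 29.4 FPKM and was ordered in the same way. It rose by 1.25 in Control (SE 0.373, adjusted p = 0.0942) and 1.98 in SMF against Unstimulated (SE 0.373, adjusted p = 0.0166), and without Control replicate 2 the first was 0.96, just short of 2-fold.

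The other GTPases did not pass the limits in any comparison. *Gbp4*, which overlaps *Gbp8* and *Gbp9* on the same strand, was at 43.6 and 25.0, 12.9 and 20.5, and 33.8 and 29.5 FPKM, lowest in the Control libraries. *Gbp3* was at 1.54 and 5.00, 0 and 9.44, and 7.20 and 16.3, *Gbp7* at 3.64 and 15, 7.48 and 12.1, and 9.01 and 18.7, and *Irgm1*, which steers autophagy, at 8.97 and 27.5, 23.2 and 27.6, and 19.2 and 65.9. For these 3 genes all groups overlapped except *Gbp3* in SMF against Unstimulated.

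**Figure D5:**
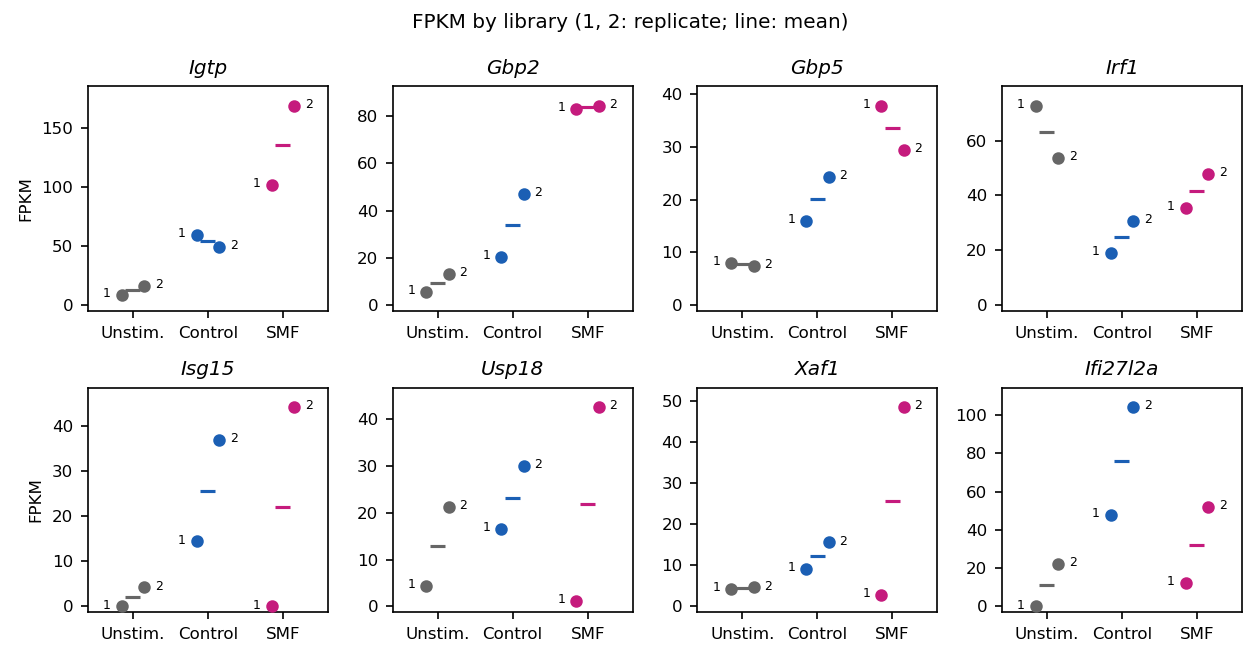
FPKM of 8 members in each library, with points labelled by replicate and short lines at the group mean; every axis includes 0. *Igtp*, *Gbp2* and *Gbp5* are ordered Unstimulated, Control, SMF without overlap, *Irf1* is lowest in the Control libraries, and for *Isg15*, *Usp18* and *Xaf1* the SMF libraries lie below and above both Control libraries.

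The remaining interferon-induced proteins differed between the SMF libraries by at least 2-fold without exception. *Xaf1*, a partner of the apoptosis inhibitor XIAP, was at 4.36 and 4.63 FPKM in the Unstimulated, 9.09 and 15.6 in the Control and 2.91 and 48.5 in the SMF libraries. *Rtp4*, a chaperone of membrane receptors, was at 0.253 and 11.3 in the SMF libraries and at 1.72 to 5.13 in the others. *Ifi44* was listed at 0 in all libraries except Control replicate 2, at 2.02, and SMF replicate 2, at 5.73.

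*Ifi27l2a*, a small membrane protein, was the member with the widest rise on stimulation, from 0 and 22.1 FPKM in the Unstimulated to 48 and 104 in the Control libraries, and was at 12.1 and 51.8 in the SMF libraries. It rose in Control by a log2 fold change of 3.90 (SE 1.47, adjusted p = 0.157, limma), which without Unstimulated replicate 1 was 1.63, and the call was lost without any library but Unstimulated replicate 2. *Ifi35*, an adaptor that binds the protein NMI, was at 5.68 and 10.5, 28.5 and 21.4, and 16.5 and 56.1 FPKM. It rose by 1.55 in Control (SE 0.629, adjusted p = 0.181) and 1.85 in SMF against Unstimulated (SE 0.629, adjusted p = 0.0795). Both calls were lost without either Unstimulated library (1.16 to 2.24), the first also without either Control library, and the second without SMF replicate 2 (1.0) or either Control library.

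The genes that lead to interferon signalling were read beside the members. Of 21 interferon ligand genes, *Ifng*, *Ifnk* and *Ifnz* reached the mean of 1 FPKM; all listed interferon alpha genes, *Ifnb1*, *Ifne*, *Ifnl2* and *Ifnl3* were listed at 0 in every library. *Ifng*, interferon gamma, was at 26.3 and 12.7 FPKM in the Unstimulated, 310 and 175 in the Control and 187 and 308 in the SMF libraries. It rose by a log2 fold change of 3.59 in Control (SE 0.476, adjusted p = 0.0142, limma) and 3.64 in SMF against Unstimulated (SE 0.476, adjusted p = 0.00666), and the SMF and Control libraries overlapped. *Ifnk* was above 0 only in Unstimulated replicate 2, at 8.76, and SMF replicate 2, at 1.14, and *Ifnz* did not exceed 2.27.

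Of the 5 receptor genes tested, 2 fell in Control and 1 in SMF against Unstimulated, and 1 rose in SMF against Control. Of all genes 12.6% and 14.8% fell and 12.5% rose in the same comparisons. *Ifngr2*, the signalling chain for interferon gamma, was at 7.97 and 5.75, 0.492 and 0.906, and 0 and 0.383 FPKM, and it fell by 2.21 on the log2 scale in Control (SE 0.582, adjusted p = 0.0707, limma) and by 2.73 in SMF (SE 0.582, adjusted p = 0.023). Its partner *Ifngr1* was at 59.7 and 54.3, 54.9 and 39.5, and 26.2 and 33.6. *Ifnar2*, a chain of the type I receptor, was at 17.0 and 17.9, 9.14 and 7.68, and 14.6 and 32.3, and was the receptor gene that rose in SMF against Control, by 1.28 (SE 0.459, adjusted p = 0.205). *Ifnar1* was at 14.2 to 24.1 in all libraries, *Il10rb*, which fell in Control by 1.28 (SE 0.386, adjusted p = 0.0955), at 20.8 and 19.6, 9.08 and 6.56, and 17.0 and 11.9, and *Ifnlr1* was listed at 0 in all libraries except Unstimulated replicate 1.

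Of the kinases *Jak1*, *Jak2* and *Tyk2*, only *Jak1* was called, in Control against Unstimulated, where it fell, as did 12.6% of all genes. Among 6 further IRF genes tested, 2 rose in both stimulated groups, where 12.3% of all genes rose in Control and 22.4% in SMF against Unstimulated. *Irf4*, induced by the T cell receptor, was at 3.79 and 3.12, 38.2 and 39.3, and 76.5 and 74.9 FPKM, and *Irf8* at 13.8 and 6.28, 64.9 and 35.5, and 35.1 and 36.6. *Irf2* was at 9.06 to 27.2 FPKM, *Irf3* at 19.3 to 60.8 and *Irf5* at 58.7 to 110 FPKM, with no call. *Irf4* rose in SMF against Unstimulated by 4.11 (SE 0.307, adjusted p = 0.00302, limma).

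Of 6 negative regulators, *Cish* rose and *Socs3* fell in both stimulated groups, and *Ptpn2* rose in SMF against Unstimulated. Of all genes 12.3% rose and 12.6% fell in Control, and 22.4% rose and 14.8% fell in SMF against Unstimulated. *Socs3*, an inhibitor of cytokine receptors that was not a member, was at 27.3 and 32.1, 2.03 and 0.742, and 1.34 and 1.80 FPKM, a log2 fold change of -3.74 in Control (SE 0.503, adjusted p = 0.0148, limma). *Cish*, a STAT5 target of the same family, was at 0 and 0.534, 6.93 and 6.14, and 7.62 and 27.5, a rise of 3.66 in SMF against Unstimulated (SE 0.687, adjusted p = 0.0165). None of the 6 was called in SMF against Control, where 12.5% of all genes rose and 5.72% fell. Of the 9 genes tested that sense nucleic acids or relay the signal, *Dhx58* rose in both stimulated groups and *Ikbke* fell in Control, with no call in SMF against Control.

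A further 53 interferon-stimulated genes outside the members gave 45 tested. In Control against Unstimulated 2 of these rose and 11 fell, where 12.3% and 12.6% of all genes did so, and in SMF against Unstimulated 3 rose and 11 fell, where 22.4% and 14.8% did. The median log2 fold changes were -0.69 and -0.23, against -0.05 and 0.27 for all genes. The B cell and myeloid markers were lower in the same comparisons, with B cell sums of 172 and 122 FPKM in Unstimulated and 2.71 to 23.3 in stimulated libraries, and their part in these counts was not tested. *Ifi213*, of the IFI200 family, was at 27.1 and 32.6 FPKM in the Unstimulated, 0 and 1.44 in the Control and 0.361 and 3.36 in the SMF libraries. It fell by 4.30 on the log2 scale in Control (SE 0.758, adjusted p = 0.0266, limma) and by 3.65 in SMF (SE 0.758, adjusted p = 0.0213). In SMF against Control 2 of the 45 rose, *Trim21*, an intracellular antibody receptor, and *Herc6*, the ISG15 ligase, and 0 fell. Of all genes 12.5% rose and 5.72% fell, so that both counts were under their background. *Trim21* was at 28.5 and 12.8, 4.18 and 6.33, and 20.2 and 21.2 FPKM, with a log2 fold change of 1.82 (SE 0.484, adjusted p = 0.159), and *Herc6* at 19.3 and 14.7, 10.7 and 9.46, and 17.6 and 28.9, with 1.09 (SE 0.398, adjusted p = 0.208).

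The split between the SMF libraries was present among these further genes as well. SMF replicate 2 was at least 2-fold above replicate 1 for 23 of 45 and below for 1, with a median difference of 1.01, against 9.67% and 9.37% of all genes. In Control the counts were 9 and 3 of 45, where 19.9% and 12.7% of all genes differed so. In Unstimulated they were 8 and 5 of 45, against 19.2% and 13.4% of all genes. Among 13 genes of MHC class I antigen presentation, which interferon gamma also induces, 3 were 2-fold above and 0 below in SMF replicate 2. Their median difference was 0.37. None of the 13 was called in Control against Unstimulated, where 12.3% of all genes rose and 12.6% fell. *Psmb8* and *Psme1* rose in SMF against Unstimulated, where 22.4% of all genes rose. *Psmb8*, a subunit of the immunoproteasome, also rose in SMF against Control, where 12.5% of all genes did.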

How the data were processed

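RNA was sequenced from 6 libraries of mouse CD8+ T cells, 2 per group. The authors deposited 1 StringTie file per library (version 1.3.5 per the file headers, annotated GENCODE M19 transcripts on GRCm38, stranded) with the FPKM, TPM and coverage of each transcript. Their processing notes name Trimmomatic 0.36 and HISAT2. A series-wide table with 3 value columns that match no sample was not used. Gene FPKM was summed here over transcripts. Whole reads were not recovered, so the precision of counting is unknown, no counting intervals are given, and 0 is reported only as listed at 0.

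Genes that averaged 1 FPKM or more were fitted as log2(FPKM + 1) on the 3 groups together with limma 3.58.1 (R 4.3.3, variance trend, 3 residual degrees of freedom), so fold changes of low genes are understated. Calls used the study's limits, a change of 2-fold or more and a two-sided p of 0.05 or less before adjustment, with Benjamini-Hochberg adjustment over all genes tested. The fit was tested on simulated data. Tables, motif searches and figures used Python 3.11.15 with pandas 2.3.3, numpy 2.4.6 and matplotlib 3.10.9.

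The members and gene lists were chosen with earlier results of these data known. Fold changes and p were printed for called members, and among pathway genes values were given for *Ifng*, the receptor genes, IRF genes and the 3 largest called changes per comparison. *Irgm2* and *Gm44148* were named beside members they overlap. Further members overlap other genes: *Irf7* with *Phrf1*, *Irf1* with *Gm17334*, *Oasl1* with *Gm13822*, *Ifi35* with *Gm11626* and *Gbp2* with *Mir6381* on the opposite strand, and *Ifitm2* with *Gm45717*, *Parp14* with *AC129574.2*, *Gbp7* with *Gm43802* and *Rtp4* with *Gm45338* on the same strand.

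Deviations of same-numbered libraries from their group means correlated, across genes, by 0.0963 (Unstimulated and Control), 0.0301 (Unstimulated and SMF) and 0.0206 (Control and SMF), each over 2 pairs, and the block on replicate number was an alternative. Others were no filter or a mean of at least 5 FPKM, a pseudocount of 0.1, gene TPM, 3 other scalings, no variance trend, only the groups compared, an adjusted p of at most 0.05 and leaving out each library. Some items withheld from this text are not reported here.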

Additional observations from a re-analysis of the deposited data

How the results depend on the processing

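No called member changed direction under any alternative run, but the median of the members in SMF against Control turned to -0.38 without SMF replicate 2. The 20 calls of a member in a comparison gave 358 combinations with an alternative, of which 265 kept the call and 93 lost it, and 4 calls were kept in every one: *Igtp* in Control and in SMF against Unstimulated, and *Gbp2* and *Gbp5* in SMF against Unstimulated. The cause of the changes below was not tested, other than fewer libraries, genes or a stricter limit where the alternative is one of those.

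With an adjusted p of at most 0.05, 1 member was higher and 0 lower in Control against Unstimulated, and 0 higher and 0 lower in SMF against Control. In Control against Unstimulated, 3 were higher with no variance trend; 2 were lower with no filter, with a common sum over genes of several exons and with only the groups compared, and 3 with TPM. In SMF against Unstimulated, 1 was lower with no filter and with TPM. In SMF against Control, 3 were higher with a pseudocount of 0.1, 1 with libraries shifted to a common median and 2 with quantile normalization.

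Leaving out single libraries gave 1 to 6 members higher and 0 to 3 lower in Control against Unstimulated (median log2 fold change 0.07 to 0.86), 4 to 16 higher and 0 to 3 lower in SMF against Unstimulated (0.00 to 1.87), and 1 to 7 higher and 0 to 7 lower in SMF against Control (-0.38 to 1.21). The group left with a lone library was assumed to vary like the others. The libraries behind these ends are named beside the medians earlier, other than that behind 0.86.

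With the replicate number as a block on all 6 libraries, 8 members were higher and 1 lower in Control against Unstimulated, 8 and 0 in SMF against Unstimulated, and 5 and 1 in SMF against Control. With the block and only the groups compared, the counts were 7 and 2, 9 and 0, and 2 and 2. The pairing by number is not stated in the labels. Only the folder dates tie Unstimulated and Control libraries.

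Alternatives for the SMF replicates were chosen after seeing the data. With a mean of at least 5 FPKM, 17 of 26 members were at least 2-fold higher in SMF replicate 2, and with a pseudocount of 0.1, 1 member was higher in SMF replicate 1; under no filter, TPM and the 3 scalings the counts were 28 to 30 and 0. Groups of 2 are too few to test for outlying libraries.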
